A study of Mus musculus with 4 samples.

Results

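Fbln1, Fbln2 and Fbln5 encode fibulins, secreted glycoproteins of the extracellular matrix. They were chosen by name, with earlier results of these data known. They are 3 of the 8131 genes that had a ratio on at least 3 of 4 microarrays of mouse fibroblasts, and each was represented by 1 of the 20355 probes. Each array was a two-colour cDNA hybridisation of RNA from an Erbb2-transfected NIH3T3 line against RNA from untransfected NIH3T3 cells. NIH3T3 is a widely used immortal line of mouse embryo fibroblasts, and Erbb2 codes for a tyrosine kinase receptor related to the EGF receptor. The labels describe the transfected line as overexpressing Erbb2 and the untransfected cells as having normal Erbb2 expression. They name no construct, promoter or culture conditions for the transfected line and do not say whether it is 1 clone. Cy5 labelled the transfected sample on the first pair of arrays (1 and 2), and Cy3 labelled it on the other pair (3 and 4). The arrays are technical replicates of 1 biological sample per line, so every SD, interval and p-value below covers the spread between hybridisations only, and an effect of Erbb2 cannot be told apart from any other difference between the lines.

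Fibulins share a chain of calcium-binding EGF-like modules and a C-terminal module typical of the family. Fibulin 5 binds elastin and cell-surface integrins, and mice that lack it assemble disorganised elastic fibres. Fibulin 2 binds fibronectin, fibrillin and basement membrane proteins, and fibulin 1 lies within elastic fibres and basement membranes and binds fibronectin. In an elastic fibre, elastin is laid down on a scaffold of fibrillin microfibrils and cross-linked by lysyl oxidases, and fibroblasts are a main source of these proteins.

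Fbln2 and Fbln5 had low ratios on every array on which they were measured and Fbln1 did not, so the sequences upstream of the 3 genes are shown to set the genes with low ratios beside the third. They are the 250 bases before the annotated start in RefSeq (GRCm38.p6), at chr6:91212514-91212763 on the plus strand for Fbln2, chr12:101819120-101819369 on the minus strand for Fbln5 and chr15:85205699-85205948 on the plus strand for Fbln1. Where the table held 2 starts for a gene (Fbln5 and Fbln1), the one nearest the outer end of the gene was taken. Capitals mark matches, on either strand, to GGGCGG (GC box), CACGTG (E-box) or TGACG (part of the cyclic AMP response element).
Fbln2: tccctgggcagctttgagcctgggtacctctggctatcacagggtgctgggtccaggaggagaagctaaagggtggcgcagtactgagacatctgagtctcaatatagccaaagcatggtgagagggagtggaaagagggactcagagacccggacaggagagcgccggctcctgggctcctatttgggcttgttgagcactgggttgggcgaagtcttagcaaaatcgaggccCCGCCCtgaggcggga
Fbln5: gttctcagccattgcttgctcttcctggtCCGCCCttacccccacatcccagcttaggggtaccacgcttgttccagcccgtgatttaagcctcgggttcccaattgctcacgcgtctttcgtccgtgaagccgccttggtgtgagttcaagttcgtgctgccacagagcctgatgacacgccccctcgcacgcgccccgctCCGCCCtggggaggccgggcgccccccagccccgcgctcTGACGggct
Fbln1: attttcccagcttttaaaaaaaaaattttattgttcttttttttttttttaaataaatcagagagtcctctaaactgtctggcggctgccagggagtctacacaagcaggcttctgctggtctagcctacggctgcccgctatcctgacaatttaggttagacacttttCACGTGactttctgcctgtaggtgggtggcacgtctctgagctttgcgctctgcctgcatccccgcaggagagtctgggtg

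The Fbln2 sequence held 1 GC box, 16 bases before the start, and the Fbln5 sequence held 2, at 221 and 48 bases before it. The Fbln1 sequence held 0 GC boxes. Of 32851 RefSeq promoters, each reduced to the same 250 bases before the start, 32.7% held at least 1 GC box and 16.7% held 2 or more. Fbln1 had the only E-box (81 bases before the start, a motif in 6.02% of promoters) and Fbln5 the only TGACG (9 bases before the start, 17.8%). None of the 3 held an AP-1 site (TGANTCA, 6.75%), a TATA box (TATAAA, 12.4%) or a palindromic SMAD site (GTCTAGAC, 0.167%). Bases G and C made up 58.8% of the Fbln2, 65.2% of the Fbln5 and 46.4% of the Fbln1 sequence, against a median of 52.4%. These matches are a description of the letters in these windows.

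No source used here defines the sign of the deposited values. Capped ratios, 63 to 121 per array, were all positive in 1 dye orientation and all negative in the other, which shows that 1 orientation had been turned but not which way the ratio runs. Transfected over untransfected is called the likely direction here because the labels make the transfected sample channel 1 throughout and Cy5 over Cy3 is the customary quotient. If that reading were wrong, every sign below would be the opposite. Between 76.8% and 94.6% of the probes had a value per array, and the ratios of any pair of arrays correlated weakly across genes, which are not independent replicates, with Pearson's r from 0.095 to 0.182. Erbb2 itself was not analysed here, since it had no named probe.

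Fbln5 had the lowest ratio of the 3 genes. Its log2 ratio was -5.12 on array 1, -3.96 on array 2 and -4.41 on array 4, and array 3 held no value for it. All 3 measured arrays thus placed it far below 0, in both dye orientations; 1108 of all genes (13.6%) were below 0 on every measured array. The mean was -4.50 ± 0.59 (SD, n = 3 arrays), a 22.6-fold lower level in the transfected line. Single arrays gave 34.8-fold, 15.5-fold and 21.2-fold. By mean ratio Fbln5 ranked 6 from the lowest of 8131 genes, and 5, 70 and 41 from the lowest on arrays 1, 2 and 4. Fitted with the mean of both dye orientations weighed equally, it had -4.47 with a 95% interval of -5.78 to -3.16.

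Fbln2 was measured on all 4 arrays and had log2 ratios of -3.77, -2.57, -3.26 and -3.47 on arrays 1 to 4. Array 2 was the nearest to 0, and no array lay within 2 log2 units of 0. The mean was -3.27 ± 0.51 (SD, n = 4 arrays), a 9.64-fold lower level in the transfected line, with a fitted 95% interval of -4.17 to -2.37. It ranked 20 from the lowest by mean ratio, and 22, 262, 196 and 98 from the lowest on arrays 1 to 4. Of all genes, 28.8% had a smaller SD over their arrays than Fbln2.

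Fbln1 had log2 ratios of 1.04, -0.56, 0.72 and -1.58 on arrays 1 to 4. Arrays 1 and 3 lay above 0 and arrays 2 and 4 below it, so each dye orientation held 1 value of each sign. The mean was -0.10 ± 1.21 (SD, n = 4 arrays), near the median of -0.09 over all gene means. The fitted 95% interval of -1.45 to 1.26 spans a more than 2-fold difference in either direction. Its sign turned when 1 array was left out, to 0.30 without array 2 and 0.48 without array 4. By mean ratio it ranked 4045 from the lowest. A smaller SD than that of Fbln1 was found for 74.5% of all genes.

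**Figure D1:**
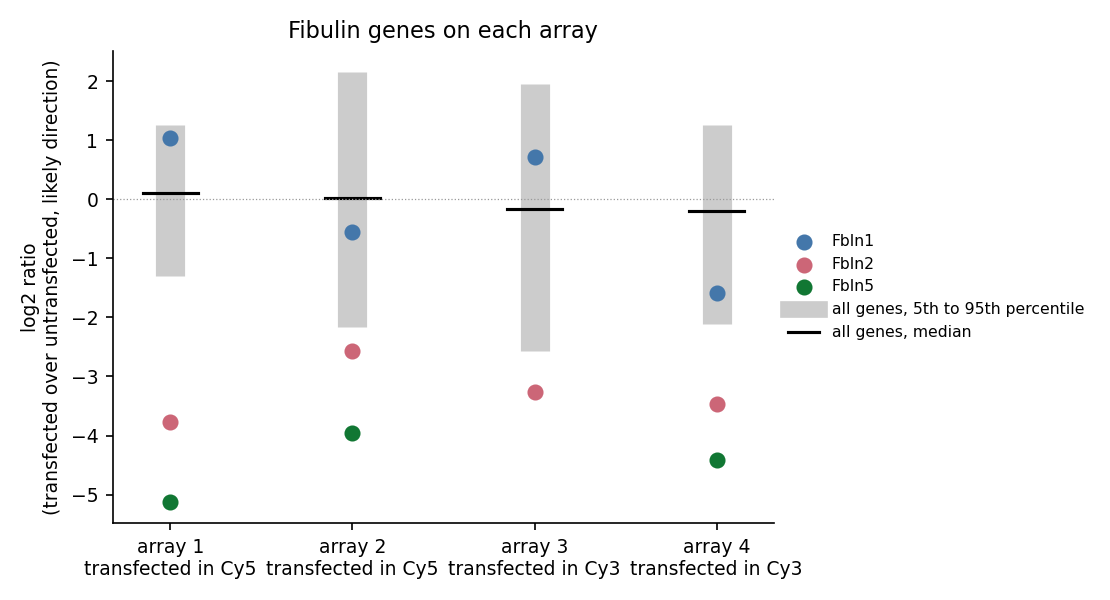
Log2 ratio of each fibulin gene (points) on arrays 1 to 4, with the median (black line) and the 5th to 95th percentile (grey bar) of all genes on that array. Fbln2 and Fbln5 lie below the grey bar on every array on which they have a value, while Fbln1 lies within it, above the median on arrays 1 and 3 and below it on arrays 2 and 4.

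None of the 3 genes passed the test across all genes. Limma's adjusted p was 0.23 for Fbln2, 0.278 for Fbln5 and 0.958 for Fbln1. Over the alternative settings the adjusted p ranged from 0.0659 to 0.61 for Fbln2, from 0.0842 to 0.527 for Fbln5 and from 0.673 to 0.995 for Fbln1. At an adjusted p under 0.05 limma called 0 of 8131 genes, which is 0.0% in each direction, and the smallest adjusted p of any gene was 0.23. At an unadjusted p under 0.05 it called 525 genes lower (6.46%) and 261 higher (3.21%), with Fbln2 (unadjusted p = 2.26e-04) and Fbln5 (6.53e-04) among the former.

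Size gives a second background, with no test. A mean below -1, which is a 2-fold lower level, together with a value below 0 on every measured array was met by 452 genes (5.56%), and Fbln2 and Fbln5 were among them. On the other side 235 genes (2.89%) had a mean above 1 and 1 sign. Only 28 genes (0.344%) had a mean below -3, and these included Fbln2 and Fbln5. Next to Fbln5 in that order stood Atoh8, a transcription factor gene (-4.75), and Fgf7, a fibroblast growth factor gene (-4.0). Like Fbln5, both were measured on 3 arrays only. Next to Fbln2 stood the muscle gene Myoz3 (-3.31) and the Wnt ligand gene Wnt10b (-3.18), each measured on 3 arrays. The SD of either fibulin over its arrays was larger than the gap to these neighbours. Differences from them on the same array were not computed, so no order among them is claimed.

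**Figure D2:**
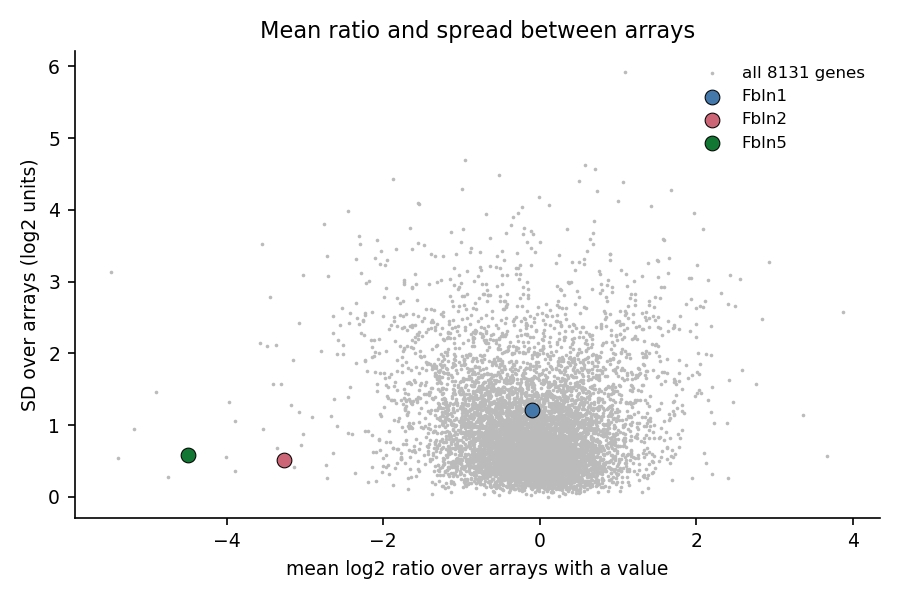
Mean log2 ratio over the arrays with a value (x axis) against the SD over those arrays (y axis, log2 units) for all 8131 genes (grey) and the 3 fibulin genes. Fbln2 and Fbln5 combine means of -3.27 and -4.50 with SDs of 0.51 and 0.59, and Fbln1 lies in the central cloud with an SD of 1.21.

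The ratios of Fbln2 and Fbln5 were low with either dye on the transfected sample. Fbln2 had a mean of -3.17 with the transfected sample in Cy5 and -3.37 in Cy3, and Fbln5 had -4.54 in Cy5 and -4.41 on the 1 array in Cy3 that measured it. The corresponding means of Fbln1 were 0.24 and -0.43. Limma's adjusted p for the dye term was 0.96 for Fbln2, 0.981 for Fbln5 and 0.922 for Fbln1, and with so few arrays these values do not show that the orientations were equal.

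The fibulin genes were then compared with one another on the same array, in 3 pairs. Fbln2 lay below Fbln1 by 4.81, 2.02, 3.98 and 1.89 log2 units on arrays 1 to 4, with a mean difference of -3.17 ± 1.45 (SD, n = 4 arrays). It was lower on all 4 arrays, and the two-sided exact sign-flip permutation test gave p = 0.125 (adjusted p = 0.25), the smallest that 4 arrays allow. Fbln5 lay below Fbln1 on all 3 shared arrays, with a mean difference of -4.13 ± 1.78 (exact sign-flip permutation test, p = 0.25, adjusted p = 0.25). Fbln5 lay below Fbln2 by a steady margin of 1.35, 1.39 and 0.93 log2 units on arrays 1, 2 and 4. The mean difference was -1.22 ± 0.25, a ratio 2.34-fold lower for Fbln5 (exact sign-flip permutation test, p = 0.25, adjusted p = 0.25). With 3 arrays 0.25 is the smallest p that can be reached.

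Which gene a ratio belongs to depends on how the columns of the deposited table line up, so this was checked around each probe. The probes of Fbln2 and Fbln5 stand in rows 1671 and 2557, in the first 6000 rows, where the columns line up as deposited. In the 1001 rows around the Fbln2 probe the mean Spearman correlation of array 1 with arrays 2 to 4, across probes, was 0.164 as the rows stand and at most 0.063 at offsets of 1 to 8 rows. Around the Fbln5 probe it was 0.118 as the rows stand and at most 0.035 at the other offsets. By array, the rows around Fbln5 as they stand gave 0.221 for array 2, 0.111 for array 3 and 0.023 for array 4. Array 4, the only array in Cy3 with a value for Fbln5, thus did not peak there by itself, with 0.059 at an offset of 2 rows and 0.061 at 5. The Fbln1 probe stands in row 19795, in the last part of the table. There the correlation was -0.03 as the rows stand, 0.094 with arrays 2 to 4 read 4 rows higher and at most 0.026 at the other offsets. By array, that last correlation was 0.191 for array 2, 0.051 for array 3 and 0.039 for array 4. The ratios of Fbln1 on arrays 2 to 4 therefore rest on an offset inferred from the data. As deposited, its row held 0.352, -3.484 and -1.243 on those arrays, which gave a mean of -0.83, and an offset 1 row larger gave 0.97.

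**Figure D3:**
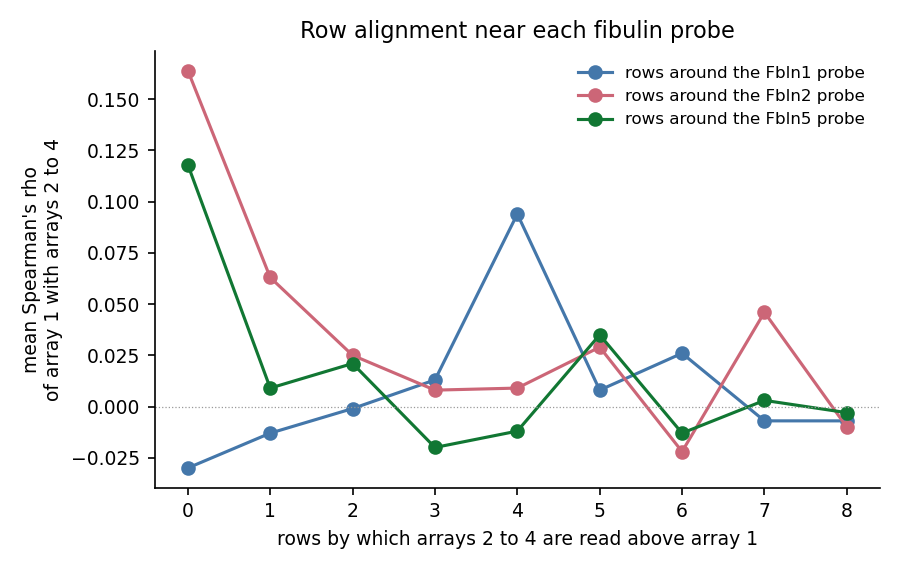
Mean Spearman correlation of array 1 with arrays 2 to 4 across the probes within 500 rows of each fibulin probe (y axis), when arrays 2 to 4 are read 0 to 8 rows above array 1 (x axis). The rows around Fbln2 and Fbln5 peak at an offset of 0 (0.164 and 0.118), those around Fbln1 at an offset of 4 (0.094).

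Other genes of the family and of elastic fibres were taken from lists of 76 genes, of which 39 were measured on at least 3 arrays. Limma called 0 of the 39 at an adjusted p under 0.05, and 8 lower and 0 higher at an unadjusted p under 0.05, a level passed by 6.46% and 3.21% of all genes. By size, 9 (23.1%) were lower and 1 was higher, beside 5.56% and 2.89% of all genes. A mean below 0 was found for 27 of the 39, beside 56.4% of all genes, and their median was -0.46, beside -0.09 over all genes. Only Lox, Timp3 and Fn1 had a mean below that of Fbln2.

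Of the other fibulins, Fbln7, which encodes an adhesion protein of the family, had 2.47, 6.41 and -0.09 on arrays 1 to 3. Its mean of 2.93 ± 3.27 (n = 3 arrays) was smaller than its SD, and limma's adjusted p was 0.551. Hmcn2, which encodes the large family member hemicentin 2, had a value on arrays 1 and 2 alone (-0.04 and 3.68). Efemp1, Efemp2 and Hmcn1 had no named probe here.

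Genes of the scaffold on which fibulins act had means from -0.91 to 1.81, all nearer to 0 than those of Fbln2 and Fbln5. Of 8 measured genes of the elastic fibre core and microfibrils, 6 had a mean below 0 (56.4% of all genes did) and 2 above, with a median of -0.64. By size 0 were lower and 1 was higher, beside 5.56% and 2.89% of all genes. Limma called 0, also at an unadjusted p under 0.05, a level passed by 6.46% and 3.21% of all genes. Fbn2, a fibrillin gene, had -1.0, -0.70, 0.18 and -1.38 on arrays 1 to 4. Ltbp3, which encodes a latent TGF-beta binding protein of microfibrils, lay below 0 on all 4 arrays (-0.44, -1.07, -0.80 and -0.70), with a mean of -0.75 ± 0.26 and an adjusted p of 0.527 in limma. Emilin1, a glycoprotein gene of the fibre surface, had a mean of -0.76 ± 0.71, Ltbp4, whose product binds fibulins, -0.04 ± 0.31 and Mfap4, a microfibril-associated gene, 1.81 ± 1.5 (n = 3 arrays). Ltbp2 had -0.91 ± 0.76, Mfap2 -0.56 ± 2.14 (n = 3 arrays each) and Emilin2 0.32 ± 1.05. Eln and Fbn1, which encode elastin and the main fibrillin, were not measured on 3 arrays.

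Among the elastin cross-linking enzymes, Lox stood with Fbln5. Lox, which encodes lysyl oxidase, had -3.81, -5.72, -5.92 and -5.27 on arrays 1 to 4, a mean of -5.18 ± 0.95 and a 36.2-fold lower level (limma, adjusted p = 0.23). Its array 1 value averages 3 probes, 1 of which read 0.38 there and had no value elsewhere. Loxl1, whose product is a binding partner of fibulin 5, had -0.47 ± 0.57, with array 1 above 0 and the other arrays below. Loxl2 had 0.34, -4.94 and -0.88 on arrays 1, 3 and 4, and Loxl3 had 0.48 ± 0.67. The 4 genes thus ranged from -5.18 to 0.48 in mean ratio, and 1 of them was lower by size, beside 5.56% of all genes.

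Of 10 measured matrix and basement membrane ligands of fibulins, 9 had a mean below 0, with a median of -0.46, and 3 were lower by size, where 56.4% and 5.56% of all genes were so. Fn1, which encodes fibronectin, a ligand of fibulins 1 and 2, had -4.38, -3.94, -3.57 and -3.68 on arrays 1 to 4, close to the values of Fbln5. Agrn, which encodes the heparan sulphate proteoglycan agrin, had a mean of -1.97 ± 1.66, and Acan, which encodes the fibulin-binding proteoglycan aggrecan, -1.25 ± 0.69 (n = 3 arrays). Agrin is itself a basement membrane component, and the other basement membrane genes of the list had means from -0.51 to 0.27: the type IV collagen genes Col4a1 and Col4a2 had -0.18 ± 0.24 and -0.29 ± 0.43, the laminin genes Lamb2 and Lama4 -0.46 ± 0.66 and 0.27 ± 0.62, the nidogen gene Nid2 -0.27 ± 0.61 and the type XVIII collagen gene Col18a1 -0.51 ± 0.86. Apoe, the apolipoprotein E gene, had -0.47 ± 1.47.

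Of the receptors, 4 were measured on at least 3 arrays. Itgb1, the integrin beta 1 gene, had -0.12 ± 0.12, with array 3 above 0 and the others just below. Itgb5, the integrin beta 5 gene, lay below 0 on every array (-1.95, -0.76, -3.37 and -0.40), with a mean of -1.62 ± 1.34 and an adjusted p of 0.499 in limma. These values average 3 probes, 1 of which read 1.36 on array 2 and had no value on array 3. Itga4 had 0.31 ± 2.81 and the endoglin gene Eng -1.76 ± 2.35, both with an SD above the size of the mean. Itgav, whose product pairs with integrin beta 5, had a value on arrays 1 and 3 alone (-2.26 and -0.32).

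Of 12 measured genes of proteases that act on fibulins or elastin and of TIMP inhibitors, 6 had a mean below 0 and 6 above. Of all genes, 56.4% had a mean below 0. By size 4 were lower and 0 higher, beside 5.56% and 2.89% of all genes. Adamts1, which encodes a protease with fibulin 1 as a cofactor, had -2.31, -0.53, -1.28 and -0.67 on arrays 1 to 4. Its mean was -1.20 ± 0.81 and limma's adjusted p was 0.492. The matrix metalloproteinase genes Mmp2 and Mmp14 had means of -1.01 ± 0.61 and -1.93 ± 1.68. The inhibitor gene Timp3 had -3.97 ± 1.33, with 1 of its 4 probes at 0.89 on array 1 and without a value elsewhere. Timp1 had 0.06 ± 0.24 and Timp2 1.0 ± 0.32 (n = 3 arrays). The Timp1 values average 2 probes that differed in sign, with means of -0.50 and 0.80. The neutrophil elastase gene Elane had 0.22 ± 0.39 and the macrophage elastase gene Mmp12 0.30 ± 1.40 (n = 3 arrays each). Of the others, the cathepsin genes Ctss and Ctsk had 1.29 ± 1.72 and -0.18 ± 1.13 and the serine protease gene Htra1 -0.09 ± 0.49 (n = 3 arrays each), and the gelatinase gene Mmp9 had 0.09 ± 0.71.

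**Figure D4:**
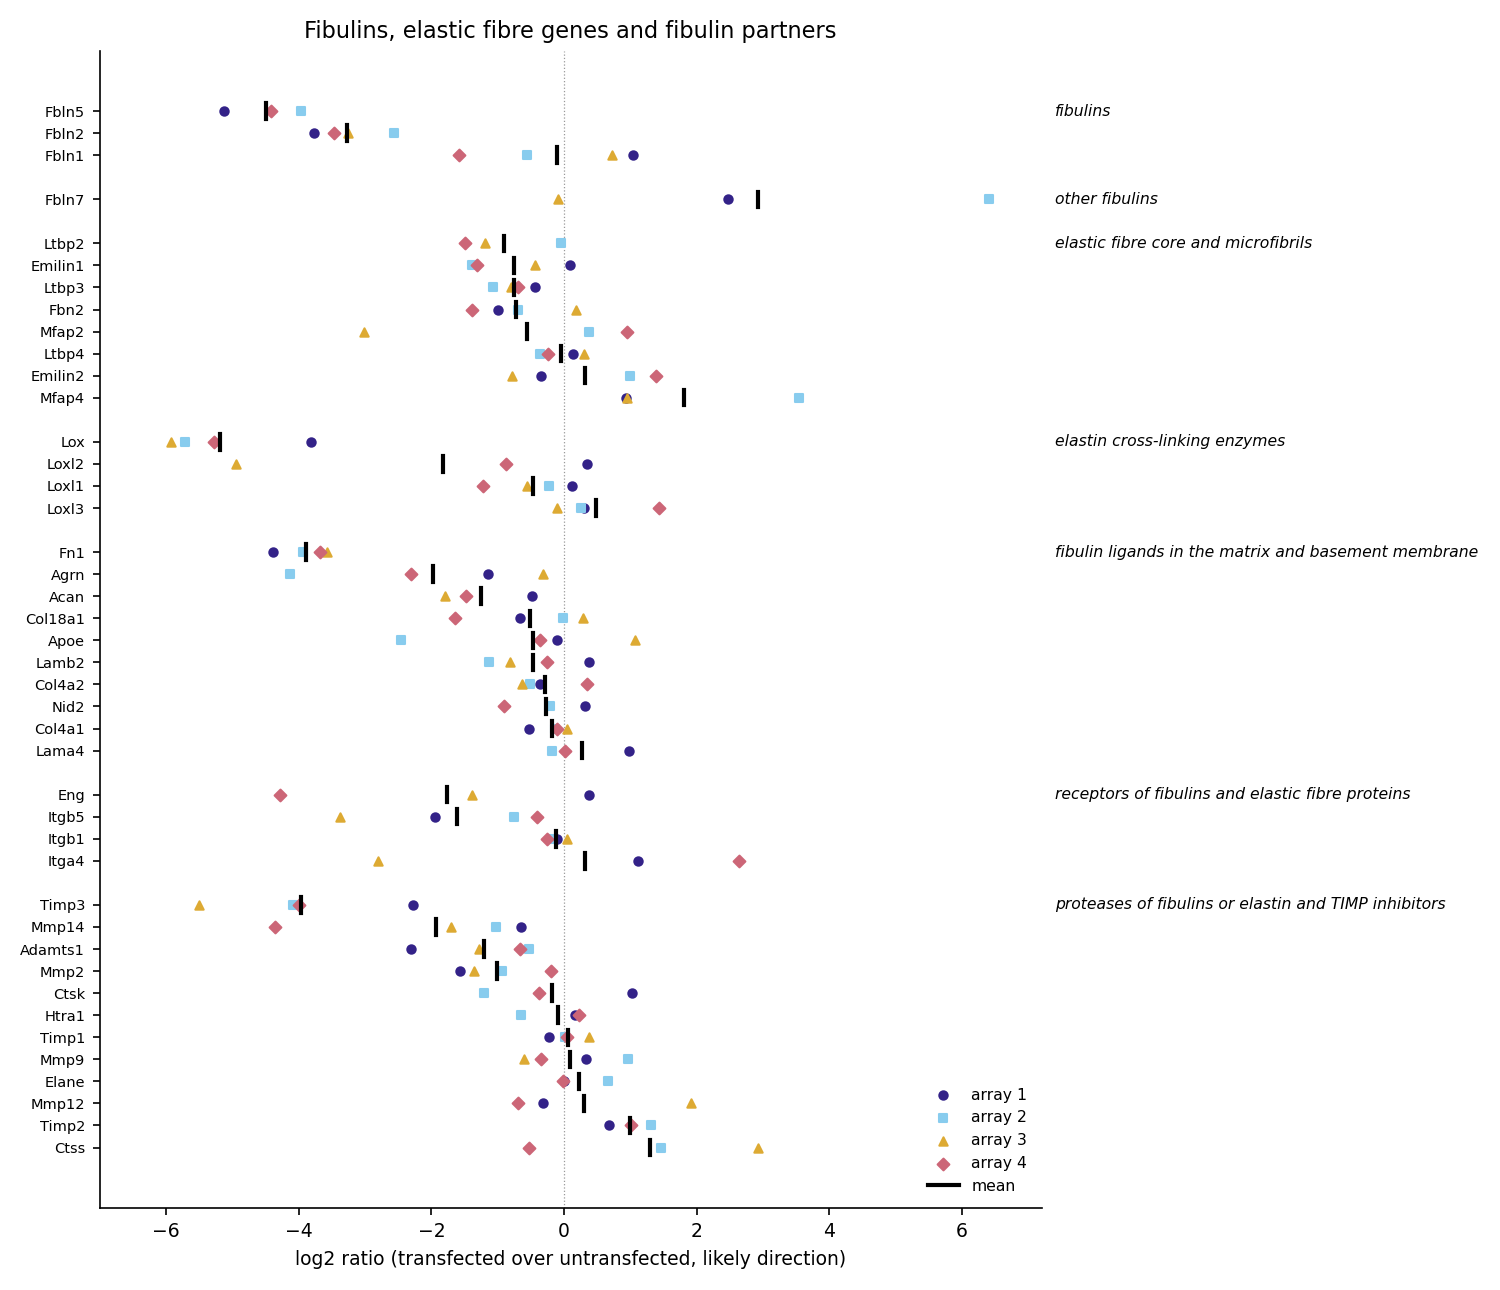
Log2 ratios on single arrays (coloured markers) and their mean (black bars) for the 3 fibulin genes and the 39 measured genes of the lists, grouped by role. Fbln5, Fbln2, Lox, Fn1 and Timp3 lie apart on the left with every array below -2, while the 8 core and microfibril genes have means from -0.91 to 1.81 and Agrn (-1.97) is the lowest of the basement membrane genes.

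The genes whose ratios were most like those of each fibulin were found by the root mean square difference over its arrays, as a description. For Fbln5, compared over 3 arrays with 7173 genes, these were Fn1 (0.60), the type I collagen gene Col1a1 (0.87) and Naprt, which encodes a nicotinate-salvaging enzyme (1.02). For Fbln2, compared over 4 arrays with 6326 genes, they were the serine protease gene Prss23 (0.60), the type I collagen gene Col1a2 (0.61) and the prostacyclin synthase gene Ptgis (0.65). For Fbln1 they were the heat shock protein gene Hspa1a (0.23), the connexin gene Gjb1 (0.27) and Rab3a, a vesicle GTPase gene (0.27). These 3 genes had arrays 1 and 3 above 0 and arrays 2 and 4 below, which follows from the way they were picked. Fn1, Col1a1 and Col1a2 were below 0 on all 4 arrays, with means of -3.89, -4.91 and -3.36. Their low ratios on the arrays compared likewise follow from the choice.

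Ratios carry no level, so whether either line expressed fibroblast markers could not be checked. Of 10 such markers 7 were measured on at least 3 arrays, with a median of 0.24. The type I collagen genes Col1a1 (-4.91 ± 1.46) and Col1a2 (-3.36 ± 0.69) were below 0 on all 4 arrays and lower by size, as was 5.56% of all genes. Fap, a fibroblast surface protease gene, had -0.36 ± 0.25, S100a4 0.24 ± 0.80 and the growth factor receptor gene Pdgfra 0.45 ± 1.85. Vim, which encodes the intermediate filament protein vimentin, had 0.42, 0.67, 0.72 and 0.85 on arrays 1 to 4, and Dcn, the decorin gene, had 0.67 ± 0.64 (n = 3 arrays). Markers of epithelial cells, leukocytes, adipocytes, endothelial cells and smooth muscle had 4 of 7, 3 of 8, 5 of 6, 4 of 6 and 2 of 5 members measured, with medians between -0.22 and 0.24. Their part in the fibulin ratios was not tested. In such RNA fewer cells of a type and less RNA per cell cannot be told apart.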

How the data were processed

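Per the labels, 4 two-colour cDNA arrays compared Erbb2-transfected with untransfected NIH3T3 cells, 2 in each dye orientation. The authors deposited ratios, read here as log2 ratios: the commonest 2 values of each array lie 1.0 apart, at a position of its own on each array (0.522, 0.548, -0.899 and -0.274 for the commonest), and capped ratios lie 16.61 from the commonest. Array medians were 0.139, 0.031, -0.177 and -0.229, so the deposited arrays were not centred on their medians. Whether they had been shifted in another way, and the image analysis and normalization, are in no source used here. Of 20355 probes, the platform annotation gave 1 symbol to 14030 and several to 5, and left the others unnamed; 13994 of the former were matched to RefSeq (GRCm38.p6), which changed 0 symbols.

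Values beyond 15 either way were taken as capped ratios and dropped (63, 120, 121 and 114 per array). Rows 1 to 6000 were used as they stand. For rows 8001 to 18000 arrays 2 to 4 were read 3 rows higher, and from row 18301 on 4 rows higher; the other 2300 rows were left out. Probes of a gene were averaged, and genes with at least 3 arrays were fitted with limma 3.58.1 in R 4.3.3 (lmFit and eBayes, dye term coded 1 and -1, Benjamini-Hochberg over 8131 genes). On simulated data with independent normal noise, the fit was required only to return the effects put in, as a median. That run does not show how well the fit finds changed genes on these arrays. Pairs of fibulins were compared with exact sign-flip permutation tests. Genes were named by 3 rules: the fibulins, all measured members of the lists, and the 3 genes nearest to each fibulin. Other genes next to Fbln2 and Fbln5 in rank, and the summary by size, were added after values were seen. The fibulins, the lists and the row offsets were chosen with earlier results of these data known.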

Additional observations from a re-analysis of the deposited data

How the results depend on the processing

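Fbln2 and Fbln5 had a ratio below 0 in all 15 and 13 alternatives that gave a value. For many of these alternatives the sign was fixed in advance. Both probes stand in the first 6000 rows, so the row settings could not change their ratios. Every array with a value lay below 0 for both genes, so leaving out 1 array could not turn the sign. Limma's adjusted p was above 0.05 wherever one could be had, and limma called 0 genes in all 15 alternatives. Leaving out 1 array gave -3.57 to -2.97 for Fbln2, -4.76 to -4.18 for Fbln5 (with no test without array 1 or 2, and no value without array 4) and -0.67 to 0.48 for Fbln1, which turned to 0.97 with an offset 1 row larger. Fbln1 had no value in the first 6000 rows or with an offset 1 row smaller, and Fbln5 none where 4 arrays were required. The means of the 3 pair differences kept their sign in every alternative that gave one. The single arrays did not always do so. With all rows as deposited, Fbln1 read -3.484 on array 3, below Fbln2 at -3.26. The exact sign-flip permutation test of Fbln2 against Fbln1 then gave p = 0.25 in place of 0.125. The dye difference of Fbln2 (0.20) turned to -0.05 with centred arrays and -0.67 with scaled ones. Without 1 array the dye differences ranged from -0.40 to 0.80 for Fbln2, from -0.48 to 1.82 for Fbln1 (main value 0.67) and from -0.72 to 0.45 for Fbln5 (-0.13).

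Genes lower by size numbered 270 of 3267 in the first 6000 rows, beside 452 of 8131 in the main setting. The share was thus larger in the first rows, where the Fbln2 and Fbln5 probes stand. With every probe on its own, 680 of 10682 probes were lower. Without 1 array the genes lower by size ranged from 516 of 8282 to 709 of 7556. Genes higher by size numbered 96 of 3267 in the first rows and 151 of 6327 with 4 arrays required, beside 235 of 8131. Without 1 array they ranged from 312 of 8282 to 385 of 7468. The median of the core and microfibril list was -0.19 with all rows as deposited, and -0.74 to -0.25 without 1 array. That of proteases and TIMPs was -1.10 with 4 arrays required, -0.34 in the first rows and -0.53 to -0.01 without 1 array. That of fibulin ligands was -0.37 as deposited, -1.25 in the first rows, -1.09 with an offset 1 row larger and -0.56 to -0.23 without 1 array. Fewer genes were tested in the first rows and with 4 arrays required, and more entries with every probe on its own. Without 1 array fewer values had to share a sign. With an offset 1 row larger the ligand list held 12 genes in place of 10. How far these differences account for the moves was not tested. List medians were not computed with every probe on its own. Each ratio already pairs both lines on the same array, and no further pairing of the 4 arrays was made. The number of arrays limits the precision.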

Other observations

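Genes with several probes show how far single probes of a gene can differ on these arrays, which bears on the fibulins, each of which had 1. The 5 probes of Fn1 all had means below -2, from -4.69 to -2.24, and lay in both the first and the last part of the table. Of the 3 Lox probes, those with at least 3 arrays had means of -5.25 in the first rows and -6.04 in the last part, while another, with a value on array 1 alone, read 0.38. Timp3 likewise had a probe with a value on array 1 alone (0.89), beside 3 with means from -4.78 to -3.59. In contrast, the 2 probes of Loxl1 had means of -1.30 and 0.36, and those of Col18a1, the type XVIII collagen gene, -1.24 and 0.22. Those of Timp1 had -0.50 and 0.80. The 5 probes of Itgb1 had means from -0.49 to 1.0, and the 3 probes of Itgb5 from -2.51 to -0.12. No gene of the family or of the lists had 1 array far enough from the other 3 to pass Dixon's criterion, among 25 genes with 4 arrays.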
